A study of Mus musculus with 20 samples.

Results

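Expression of 10 genes of the FGF and PDGF systems was followed through 10 conditions of NMuMG cells, an epithelial line from normal mouse mammary gland. The genes, picked by name from a table of 54986, were the FGF receptors Fgfr1, Fgfr2, Fgfr3 and Fgfr4, the ligand Fgf2, the PDGF receptors Pdgfra and Pdgfrb, and the ligands Pdgfa, Pdgfb and Pdgfc. The study followed RNA through epithelial–mesenchymal transition (EMT) and metastasis, and RNA-seq was deposited as CPM, the reads of a gene scaled to the total of its library. NMuMG cells were wild type, without treatment or with TGFβ, given for several days by the study's own account and at a dose that the labels do not state. E1KD cells carried an shRNA against hnRNP E1, the product of Pcbp1. M1P and L1P cells were cultures grown back from the mammary tumor (M1P) and the lung metastases (L1P) that E1KD cells had formed in NOD/SCID mice. Both carried puromycin resistance, by which the study selected them in culture. The host was also a mouse, so any host RNA cannot be told apart by species. Empty vector cells were the controls of clone 12 and clone 16, which are 2 NMuMG clones that overexpressed the long noncoding RNA Platr18, named Lncenc1 in the table. E1KD SCR and E1KD Platr18 KD cells carried the hnRNP E1 shRNA together with a scrambled shRNA or an shRNA against Platr18. Each condition had 2 libraries, and nothing says that these came from separate cultures, so the p-values measure only the spread between libraries.

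FGFs and PDGFs are secreted growth factors that bind receptor tyrosine kinases and signal through RAS, the MAP kinases, PI3 kinase and phospholipase C. FGFs bind their receptors together with heparan sulfate, and epithelial cells usually carry the splice form of FGFR2 that answers FGFs made by neighboring stroma. PDGF ligands are commonly made by epithelium and PDGF receptors by mesenchyme, and a gain of FGF2 or of PDGF receptors has long been used as a sign of EMT.

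The libraries fell into 2 kinds, and levels were compared only within a kind. NMuMG, TGFβ, E1KD, M1P and L1P libraries had 333 to 492 CPM of the mitochondrial RNA mt-Rnr2 and 0.419 to 8.996 CPM of the small nuclear RNA Rn7sk, whereas the other 10 libraries had 113874 to 165149 CPM and 6461 to 10097 CPM. Their depths were 50.8 to 60.03 M and 63.0 to 147.3 M reads, at which 3 reads on a gene were worth 0.04998 to 0.0591 and 0.0204 to 0.0477 CPM. Pcbp1 averaged 299.5 CPM in NMuMG and 15.4 in E1KD, and 32.3 in Empty vector and 3.37 in E1KD SCR. Lncenc1 averaged 3.37 CPM in Empty vector, 3094 in clone 12, 816 in clone 16, 3.01 in E1KD SCR and 0.153 in E1KD Platr18 KD. Its means were 1.35 CPM in NMuMG, 2.55 after TGFβ, 16.2 in E1KD, 25.9 in M1P and 75.1 in L1P. Lncenc1 was thus called higher in E1KD than in NMuMG (log2 fold change 2.87). E1KD SCR against Empty vector showed no such rise (-0.12, not called), and this difference of 2.99 was called. The part of Lncenc1 in the Fgfr2 and Pdgfa values was not tested. E1KD replicate 1 stood apart from its replicate, with a median log2 ratio of 0.36 over genes with at least 50 reads in both. Its CPM values summed to 728645 over all genes, against 567409 in replicate 2. In the NMuMG, TGFβ, M1P and L1P libraries the sums were 547491 to 581384. The offset was thus one of the whole library, and rescaling to equal sums is given with the counts of calls. Values without single E1KD libraries are given beside the Fgfr2, Fgfr3 and Pdgfc results and with the limits. Of the epithelial markers, Krt8 and Cdh1 were read in every condition whereas Epcam and Cldn3 were at most 0.0167 and 0.04998 CPM in any library. All 5 endothelial and all 5 mural (pericyte and smooth muscle) markers averaged under 1 CPM in every condition. The 5 immune markers summed to 2.38 to 7.21 CPM in a library, and 3 or 4 of them averaged under 1 CPM in each condition. Of these, Lyz2 averaged 0.221 CPM in E1KD, 3.05 in M1P (called higher) and 4.65 in L1P, and Csf1r 1.21 CPM in NMuMG, 4.61 after TGFβ (called higher), 1.33 in E1KD and 0.121 in M1P (called lower). The Csf1r value between M1P and E1KD was -1.04, just past the size needed for a call. The part of immune cells in the members' levels was not tested.

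Fgfr2, of which the epithelial splice form answers FGFs of the stroma, had the highest level per length of the 4 FGF receptors in 7 of the 10 conditions. Fgfr3 was above it in M1P and in E1KD Platr18 KD, and after TGFβ the 2 libraries gave opposite orders. In NMuMG it had 14.6 and 13.5 CPM, in E1KD 15.8 and 11.7 CPM, in L1P 9.43 and 9.63 CPM, in M1P 2.25 and 2.29 CPM, and after TGFβ 1.59 and 1.95 CPM. The NMuMG and E1KD libraries overlapped, and every other step in this order was free of overlap. After TGFβ Fgfr2 fell 7.94-fold in mean CPM, which was -2.44 as a log2 fold change of CPM + 1 (SE 0.107, limma adjusted p = 9.3e-11), the scale used for every log2 fold change here. Between E1KD and NMuMG its log2 fold change was -0.04 with a 95% interval of -0.275 to 0.186, and -0.22 and -0.24 after the rescalings given with the counts of calls. It was 0.16 without E1KD replicate 2 and -0.25 without replicate 1. It then fell 6.05-fold from E1KD to M1P (log2 fold change -2.16, SE 0.107, limma adjusted p = 1.3e-09) and was 4.19-fold higher in L1P than in M1P (log2 fold change 1.69, SE 0.107, limma adjusted p = 6.7e-08). L1P thus lay between M1P and the E1KD cells from which both were derived. The labels do not say how many tumors or mice M1P and L1P came from. A difference between single lines and a step of metastasis thus cannot be told apart. Some markers moved with these changes and others did not. The epithelial genes Cdh1 (177 to 70.8 CPM) and Ocln (9.28 to 3.90 CPM), 2 of 5 tested, were called lower from E1KD to M1P, where 3.59% of all genes were called. Krt19 (0.19), Krt8 (-0.24) and Krt18 (-0.18) were not. The median of all genes was -0.168 in that comparison, and Ocln, at -1.06, passed the size needed for a call by less than this shift. After TGFβ Krt19 was called lower (485 to 18.1 CPM) and 4 of 5 mesenchymal markers (Cdh2, Fn1, Zeb1 and Zeb2) higher, where 13.5% of all genes were called. Cdh1 (-0.81) and Ocln (-0.94) fell short of a call there. From M1P to L1P Cdh1 rose (0.63) while Krt8 (-0.86) and Krt18 (-0.96) fell, none of them called. Fn1 was called lower from E1KD to M1P and higher from M1P to L1P, as Fgfr2 was. Their part in the Fgfr2 level was not tested.

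In the other kind of library Fgfr2 had 30.6 and 31.4 CPM in Empty vector, 30.9 and 30.4 in clone 12, 13.1 and 12.8 in clone 16, 9.64 and 9.76 in E1KD SCR and 0.0762 and 0.0961 in E1KD Platr18 KD. Only Empty vector and clone 12 overlapped. The E1KD SCR mean was 9.70 CPM and that of E1KD Platr18 KD 0.0861 CPM, which is 113-fold lower and rested on 11.2 and 14.1 reads per library (log2 fold change -3.30, SE 0.107, limma adjusted p = 5.9e-11). The labels give 1 condition with a Platr18 shRNA and 1 scrambled control, so loss of Platr18, other effects of that shRNA and a difference between lines cannot be told apart. The 2 clones that overexpressed Platr18 were not alike. Clone 16 was 2.36-fold below clone 12 (log2 fold change -1.18, SE 0.107, limma adjusted p = 8.4e-07), although Lncenc1 was higher in clone 12. E1KD SCR was 3.20-fold below Empty vector (log2 fold change -1.58, SE 0.107, limma adjusted p = 2.6e-08), unlike E1KD against NMuMG. The difference between these 2 hnRNP E1 effects was 1.54 on the log2 scale (SE 0.151, limma adjusted p = 5.0e-06), it was 1.33 and 1.34 after those rescalings, and kind of library, vectors and the scrambled shRNA cannot be told apart in it.

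Fgfr2 lies at chr7:130162451-133123350 on the minus strand (GRCm38), a span that takes in other genes, and 210 bases of its exons are shared with Ctbp2 on the same strand. Ctbp2 did not follow Fgfr2, with 50.3 CPM in E1KD SCR and 57.5 in E1KD Platr18 KD, and 21.5 in NMuMG and 29.4 after TGFβ. The values are for whole genes, so the epithelial and mesenchymal splice forms of Fgfr2 were not separated. Of 7 genes known to regulate that splicing choice, 6 were tested and 0 were called in any of the 10 comparisons, in which 1.21% to 23.3% of all genes were called, and so small a list cannot be set apart from those shares. Esrp2, an epithelial splicing factor that favors the epithelial form, had 36.5 CPM in NMuMG and 25.4 CPM after TGFβ (log2 fold change -0.51, SE 0.0999, limma adjusted p = 5.5e-04), and its partner Esrp1 had no read in either condition. The other tested regulators did not single out Esrp2. Hnrnpm (-0.51), Hnrnpa1 (-0.48) and Ptbp1 (-0.47) fell about as much after TGFβ, Rbfox2 rose (0.56) and Srsf6 was at -0.03.

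**Figure D1:**
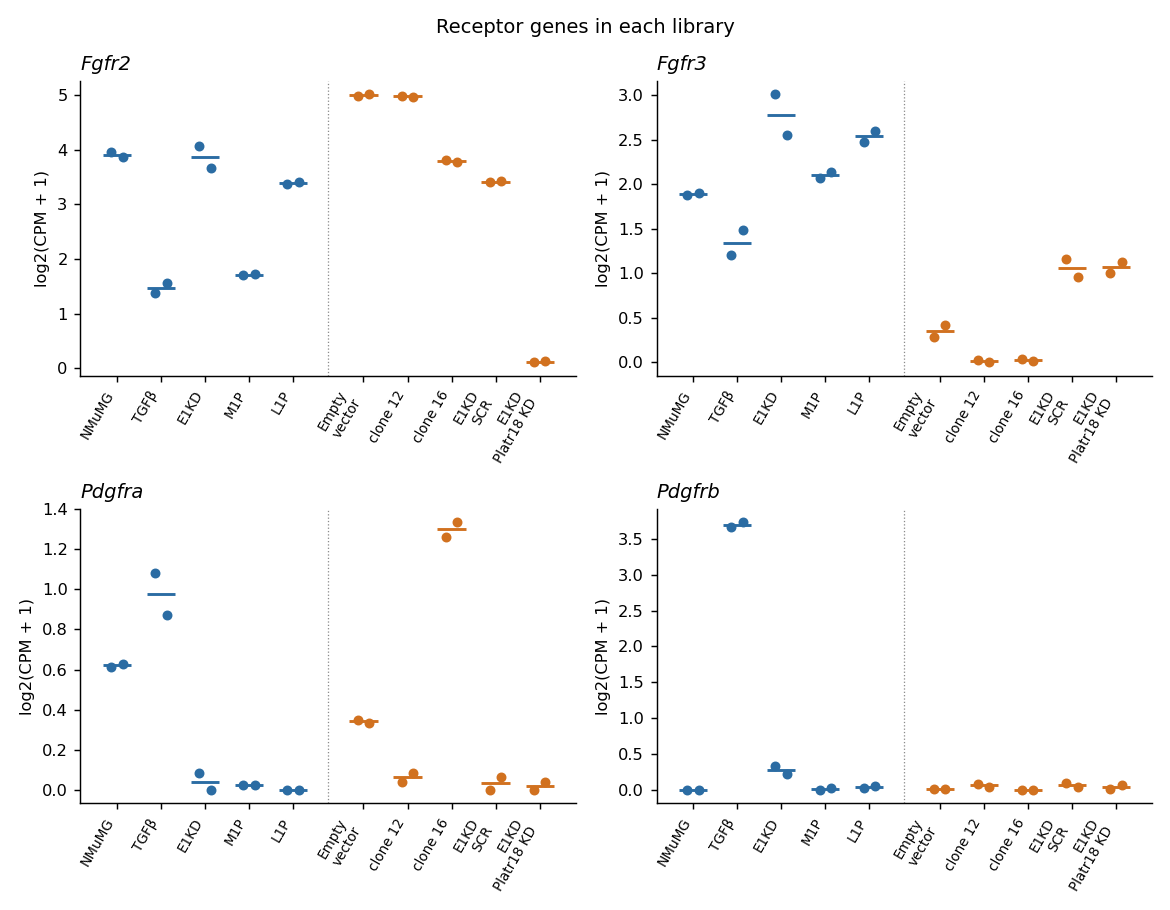
Levels of the 4 tested receptor genes as log2(CPM + 1), with 1 point per library and a bar at the mean of each condition. Blue and orange mark the 2 kinds of library on either side of the dotted line. Fgfr2 is lowest in E1KD Platr18 KD, and Pdgfrb rises clear of 0 only after TGFβ, apart from 0.256 and 0.166 CPM in E1KD.

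Fgfr3 (chr5:33721674-33737068, plus strand), a receptor better known from cartilage and bladder epithelium, had 2.67 and 2.72 CPM in NMuMG, 1.30 and 1.79 after TGFβ, 7.04 and 4.86 in E1KD, 3.21 and 3.38 in M1P, and 4.56 and 5.06 in L1P. The E1KD and L1P libraries overlapped, and the TGFβ libraries were the lowest. The mean of E1KD was 2.21-fold that of NMuMG, and its log2 fold change of 0.89 (95% interval 0.619 to 1.17, limma adjusted p = 3.8e-05) did not reach the size needed for a call. Without E1KD replicate 2 that value was 1.12 and was called, and without replicate 1 it was 0.66. Against TGFβ, E1KD was called, at 1.44 (SE 0.127, limma adjusted p = 1.5e-07). In the other kind of library Fgfr3 was low: 0.219 and 0.333 CPM in Empty vector, at most 2 reads in each library of both clones, 1.23 and 0.937 in E1KD SCR, and 1.011 and 1.19 in E1KD Platr18 KD. The last pair of conditions overlapped, and their difference in Fgfr3 was 0.01 (95% interval -0.261 to 0.285).

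Fgfr1 and Fgfr4 did not pass the filter of at least 1 CPM in at least 2 libraries and were not tested. Fgfr1, which is often the mesenchymal FGF receptor, had more than 3 reads in 4 libraries: 0.256 and 0.148 CPM in E1KD, 0.0785 in L1P replicate 1 and 0.105 in M1P replicate 1. It had no read in NMuMG and at most 1 read after TGFβ. Fgfr4, a receptor of liver and muscle, did not exceed 3 reads in any library and was highest at 0.0334 CPM. The E1KD mean of Fgfr1 was at least 3.68-fold above NMuMG, taking 3 reads per library as the limit there.

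Pdgfrb, the receptor for PDGF-B and a gene of mesenchymal cells, had 11.6 and 12.3 CPM after TGFβ, 0 and 0 in NMuMG, 0.256 and 0.166 in E1KD, 0 and 0.0177 in M1P, and 0.0196 and 0.0388 in L1P. It did not exceed 0.0677 CPM in any library of the other kind. TGFβ libraries thus stood alone, and E1KD libraries came next with 13 and 9 reads. After TGFβ Pdgfrb was at least 218-fold higher than in NMuMG, taking 3 reads per library as the limit there, and its log2 fold change was 3.69, given with no p since these libraries alone brought the gene into the test. E1KD was at least 3.85-fold above NMuMG by the same limit, with a log2 fold change of 0.28 (SE 0.048, limma adjusted p = 2.3e-04) that was not called. Pdgfrb passed the filter only through the TGFβ libraries, where it was high. Col1a1, the fibroblast collagen, moved with it: the summed level of 5 fibroblast markers was 30.1 to 38.4 CPM after TGFβ and 0.106 to 0.283 CPM in NMuMG, and 4 of these 5 stayed under 1 CPM. All 5 mural markers, which mark cells known for Pdgfrb, summed to 0.601 to 0.616 CPM after TGFβ and 0.0189 to 0.0354 CPM in NMuMG. The part of Col1a1-expressing cells in the Pdgfrb level was not tested.

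Pdgfra, which binds PDGF-A, PDGF-B and PDGF-C, was low throughout. It had 0.531 and 0.547 CPM in NMuMG, 1.12 and 0.833 after TGFβ, 0.0591 and 0 in E1KD, 0.0175 and 0.0177 in M1P, and 0 and 0 in L1P. E1KD, M1P and L1P libraries thus held at most 3 reads each, and NMuMG libraries 30 and 29 reads. Its log2 fold change was 0.36 after TGFβ (SE 0.0606, limma adjusted p = 1.6e-04) and -0.58 in E1KD (SE 0.0606, limma adjusted p = 1.8e-06), and neither reached the size needed for a call. In the other kind of library it had 0.274 and 0.261 CPM in Empty vector, 0.0297 and 0.0614 in clone 12 and 1.40 and 1.52 in clone 16. Clone 12 and clone 16 lay on opposite sides of Empty vector, with no overlap. The difference between the clones was called, at a log2 fold change of 1.23 that is given with no p since clone 16 brought the gene past the filter, and clone 16 held 101 and 109 reads against 2 and 4 in clone 12. E1KD SCR and E1KD Platr18 KD had at most 4 reads in each library. Pdgfra lies at chr5:75152292-75198215 on the plus strand and passed the filter through clone 16 and 1 TGFβ library.

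The promoter windows of Pdgfa and Pdgfc, which rose after TGFβ, and of Fgfr2, which fell, are shown so that the gene that fell can be set beside some of those that rose. They are bases before the RefSeq start on GRCm38.p6, read on the strand of the gene and cut where a coding transcript's exon was first met. For the Pdgfa window shown, the cut left out the 93 bases nearest the start. The Pdgfa and Fgfr2 windows lie inside the spans of these genes, which begin further upstream. The cut left no window for Fgf2, and Pdgfb and Pdgfrb had no RefSeq start in the source used. Capitals mark matches on either strand to CAGAC (the SMAD box), TGANTCA (AP-1), CACCTG (the E-box bound by ZEB factors) or CATTCC (TEAD).
Pdgfc (chr3:81036166-81036415, plus strand): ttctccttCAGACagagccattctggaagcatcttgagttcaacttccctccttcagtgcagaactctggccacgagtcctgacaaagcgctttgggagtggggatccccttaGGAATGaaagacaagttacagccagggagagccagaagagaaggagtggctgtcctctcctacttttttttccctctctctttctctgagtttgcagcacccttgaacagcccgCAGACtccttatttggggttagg
Pdgfa (chr5:138995038-138995194, minus strand): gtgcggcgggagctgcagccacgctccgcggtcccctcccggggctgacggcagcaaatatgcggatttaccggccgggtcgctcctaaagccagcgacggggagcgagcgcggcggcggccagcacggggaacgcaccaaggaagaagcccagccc
Fgfr2 (chr7:130266809-130267058, minus strand): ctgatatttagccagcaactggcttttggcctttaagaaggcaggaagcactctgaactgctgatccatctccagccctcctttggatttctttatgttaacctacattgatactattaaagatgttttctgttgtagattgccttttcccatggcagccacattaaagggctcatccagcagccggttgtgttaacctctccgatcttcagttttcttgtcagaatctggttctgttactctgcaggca
The Pdgfc window held 2 SMAD boxes, 242 and 23 bases before the start, and 1 TEAD match. Of 32851 RefSeq promoters, 42.2% held a SMAD box and 12.6% a TEAD match in the same 250 bases. RefSeq gives Pdgfa a second start, whose window of 250 bases (chr5:138994282-138994531) also held 0 matches and is not shown. The window of Pdgfra, not called after TGFβ and also not shown, held 1 SMAD box. The windows of Pdgfa, of 157 bases, and of Fgfr2, of 250 bases, held 0 matches, where AP-1 was in 6.7% and the E-box in 17.2% of promoters over 250 bases. In the 157 bases of the Pdgfa window these shares were 29.8% for the SMAD box, 8.5% for TEAD, 4.2% for AP-1 and 11.3% for the E-box.

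Pdgfb (chr15:79995874-80014977, minus strand), whose product binds both PDGF receptors, had the highest level per length of the 10 genes in 9 of the 10 conditions, at 23.96 CPM per kb of exon in NMuMG and 182 CPM per kb after TGFβ. In E1KD Platr18 KD it had 8.77 CPM per kb and Pdgfc 13.1. Its levels were 70.6 and 70.5 CPM in NMuMG, 508 and 563 after TGFβ, 109.6 and 90.3 in E1KD, 75.4 and 75.1 in M1P, and 70.6 and 69.8 in L1P. TGFβ libraries were far above all others, E1KD came next, and NMuMG and L1P overlapped. Pdgfb rose 7.59-fold after TGFβ (log2 fold change 2.90, SE 0.108, limma adjusted p = 1.5e-11). In E1KD its log2 fold change was 0.49 (SE 0.108, limma adjusted p = 0.001), short of a call, and it was -0.40 from E1KD to M1P (limma adjusted p = 0.008), also short. In the other kind of library Pdgfb had 45.4 and 39.8 CPM in Empty vector, 42.7 and 49.96 in clone 12, 40.4 and 47.1 in clone 16, 35.3 and 40.0 in E1KD SCR and 25.7 and 25.9 in E1KD Platr18 KD. All but the last overlapped with a neighbor, and the pooled clones differed from Empty vector by 0.08 (95% interval -0.124 to 0.276). E1KD Platr18 KD was 1.46-fold below E1KD SCR (log2 fold change -0.53, SE 0.108, limma adjusted p = 0.003), which was not called.

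Pdgfa, which encodes the ligand that binds PDGFRA alone, had 4.51 and 5.36 CPM in NMuMG, 69.8 and 68.8 after TGFβ, 8.52 and 6.91 in E1KD, 5.60 and 5.80 in M1P, and 8.36 and 8.27 in L1P. TGFβ libraries were again far above the rest, and those of E1KD and L1P overlapped. Pdgfa rose 14.0-fold after TGFβ, with a log2 fold change of 3.57 (SE 0.115, limma adjusted p = 3.6e-12), and had 0.55 in E1KD (SE 0.115, limma adjusted p = 0.001), which was not called. From M1P to L1P its value was 0.48 (limma adjusted p = 0.010), short of a call. In the other kind of library it had 7.64 and 8.92 CPM in Empty vector, 6.58 and 7.88 in clone 12, 17.7 and 18.8 in clone 16, 4.90 and 5.04 in E1KD SCR and 2.23 and 2.81 in E1KD Platr18 KD. Clone 16 was the highest and E1KD Platr18 KD the lowest, and Empty vector and clone 12 overlapped. Pdgfa was 2.52-fold higher in clone 16 than in clone 12 (log2 fold change 1.23, SE 0.115, limma adjusted p = 1.2e-06) and 1.97-fold lower with the Platr18 shRNA (log2 fold change -0.77, SE 0.115, limma adjusted p = 2.8e-04, not called). The hnRNP E1 effect was 0.55 between E1KD and NMuMG and -0.63 between E1KD SCR and Empty vector. This difference of 1.19 was called (SE 0.163, limma adjusted p = 1.1e-04), and was 1.00 after rescaling of the libraries to equal sums.

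Pdgfa (chr5:138976014-138997370, minus strand) shares 354 exon bases with the antisense gene 6330403L08Rik, and no source used here says whether reads were assigned by strand. That gene averaged 6.23 CPM in NMuMG and 19.5 after TGFβ, and 3.02 in clone 12 and 6.41 in clone 16, so it was high where Pdgfa was. It stayed below Pdgfa in the TGFβ and clone 16 libraries but was above it on average in NMuMG, E1KD, M1P, L1P and E1KD Platr18 KD (3.61 against 2.52 CPM). Its part in the Pdgfa values was not tested.

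Pdgfc (chr3:81036416-81214040, plus strand), a ligand that must be cut by a protease before it binds PDGFRA, varied least of the 4 ligands between conditions. It had 49.3 and 48.8 CPM in NMuMG, 99.3 and 107 after TGFβ, 52.9 and 41.1 in E1KD, 40.6 and 41.8 in M1P, and 47.6 and 49.1 in L1P. TGFβ libraries stood above all others, while NMuMG, L1P, E1KD and M1P each overlapped with the next. Between E1KD and NMuMG, Pdgfc was -0.25 without E1KD replicate 1, the library with the higher CPM sum, and 0.11 without replicate 2. Between M1P and E1KD it was 0.0019 without replicate 1 and -0.35 without replicate 2, and 0.036 with median-of-ratios factors. Its sign there thus turned with the E1KD library kept and with the scaling. Pdgfc rose 2.11-fold after TGFβ (log2 fold change 1.06, SE 0.0934, limma adjusted p = 2.1e-07), just past the size needed for a call. Across the other 10 libraries it ranged only from 34.8 to 46.4 CPM, with the lowest in E1KD SCR and the highest in E1KD Platr18 KD. That pair differed by 0.35 on the log2 scale (SE 0.0934, limma adjusted p = 0.015), which was not called.

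Fgf2, the heparin-binding FGF that activates FGFR1 and the mesenchymal form of FGFR2, had 2.52 and 1.57 CPM in NMuMG, 6.63 and 5.68 after TGFβ, 0.910 and 1.04 in E1KD, 0.945 and 1.13 in M1P, and 0.942 and 1.05 in L1P. TGFβ libraries were above and the E1KD, M1P and L1P libraries below those of NMuMG, and these last 3 conditions overlapped. Fgf2 rose 3.01-fold after TGFβ (log2 fold change 1.25, SE 0.114, limma adjusted p = 3.2e-07). In E1KD its mean was 2.10-fold lower, with a log2 fold change of -0.61 (SE 0.114, limma adjusted p = 4.2e-04) that was not called. In the other kind of library it was at 0.0339 to 0.290 CPM, or 3 to 20 reads, and no comparison there was called. Fgf2 (chr3:37348346-37410108, plus strand) shares 585 exon bases with Nudt6 on the other strand, which had 1.86 CPM in NMuMG and 2.46 CPM after TGFβ.

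**Figure D2:**
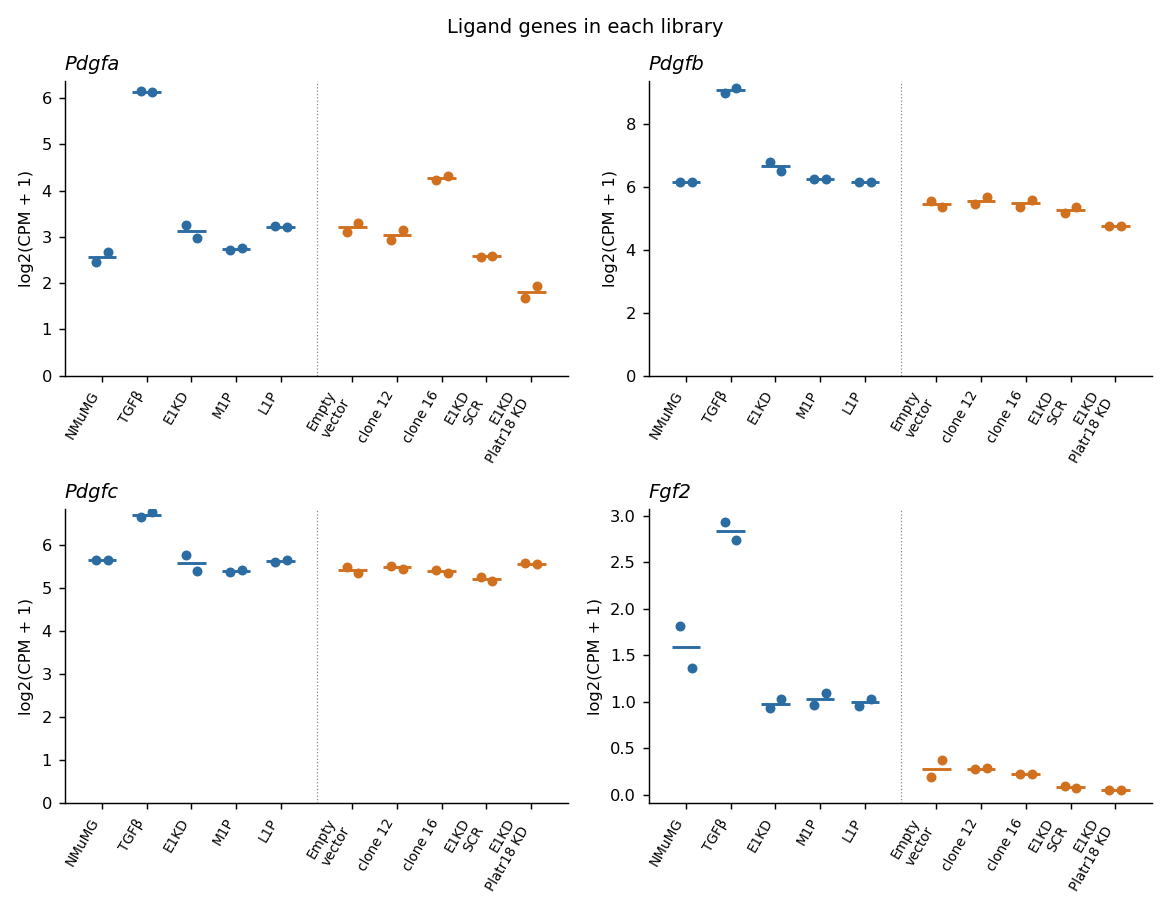
Levels of the 4 ligand genes as log2(CPM + 1), with 1 point per library and a bar at the mean of each condition, blue and orange marking the 2 kinds of library. All 4 are highest after TGFβ, where Pdgfb reaches 508 and 563 CPM, and Pdgfa is high in clone 16 of the orange libraries.

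A gene was called where its unadjusted p was under 0.001 and its log2 fold change was at least 1 in size, and 17106 genes were tested, 8 of these 10 among them. Since Pdgfrb and Pdgfra entered through the conditions in which they were high, counts over the 8 are descriptions. After TGFβ, 6 of the 8 were called, with Pdgfrb, Pdgfa, Pdgfb, Pdgfc and Fgf2 higher and Fgfr2 lower, where 13.5% of all tested genes were called. Without Pdgfrb, which is there only because it was high after TGFβ, this was 5 of 7. Between E1KD and NMuMG 0 of the 8 were called, where 9.44% of all genes were. The median of all genes was 0.17 in that comparison on the log2 scale and became 0.041 with equal sums and 0.020 with median-of-ratios factors. With these rescalings 0 of the 8 were called as well, and Pdgfb moved from 0.49 to 0.31 and 0.28, Pdgfa from 0.55 to 0.40 and 0.36, and Fgfr3 from 0.89 to 0.76 and 0.71. With a pseudocount of 0.1 in place of 1, which gives low values more weight, Fgfr3 (1.09), Pdgfrb (1.62) and Pdgfra (-2.34) were called in E1KD. The direct comparison of E1KD with TGFβ called 7 of the 8, where 23.3% of all genes were called: Fgfr2 and Fgfr3 were higher in E1KD and Fgf2, Pdgfrb, Pdgfa, Pdgfb and Pdgfc lower, which was 6 of 7 without Pdgfrb. Its Pdgfc value of -1.13 was -0.95 and not called without E1KD replicate 2. Pdgfra was at -0.94 in that comparison, short of a call, but was called after both rescalings, at -1.079 and -1.02.

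In the tumor series the only member called with a pseudocount of 1 was Fgfr2, lower in M1P than in E1KD, where 3.59% of all genes were called, and higher in L1P than in M1P, where 1.21% were called. Against Empty vector the 2 Platr18 clones pooled called 0 of the 8, where 1.46% of all genes were called. Clone 16 alone called Fgfr2 (-1.20) and Pdgfa (1.05), while clone 12 had -0.02 and -0.17 for these genes. Fgfr3 was below Empty vector in both clones, at -0.34 in clone 12 and -0.32 in clone 16. Neither value was called, and the Empty vector libraries themselves held only 16 and 23 reads of Fgfr3. The direct comparison of clone 16 with clone 12 called Fgfr2, Pdgfra and Pdgfa, where 4.38% of all genes were called. Each clone was 1 line and both shared 1 vector control, so a difference between clones and an effect of the Platr18 level cannot be told apart. With Platr18 silenced, 1 of the 8 was called, Fgfr2, where 1.48% of all genes were. Between E1KD SCR and Empty vector Fgfr2 was again the only member called, where 5.98% of all genes were, and with a pseudocount of 0.1 Fgfr3 (1.66) and Pdgfra (-1.60) were called too. The 2 hnRNP E1 comparisons, which also differ in kind of library, vectors and scrambled shRNA, differed for Fgfr2 and Pdgfa, where 3.51% of all genes were called. Comparisons that share a control, such as TGFβ and E1KD with NMuMG, are not independent of each other. In RNA from whole cultures, fewer cells that express a gene and less RNA per cell cannot be told apart.

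**Figure D3:**
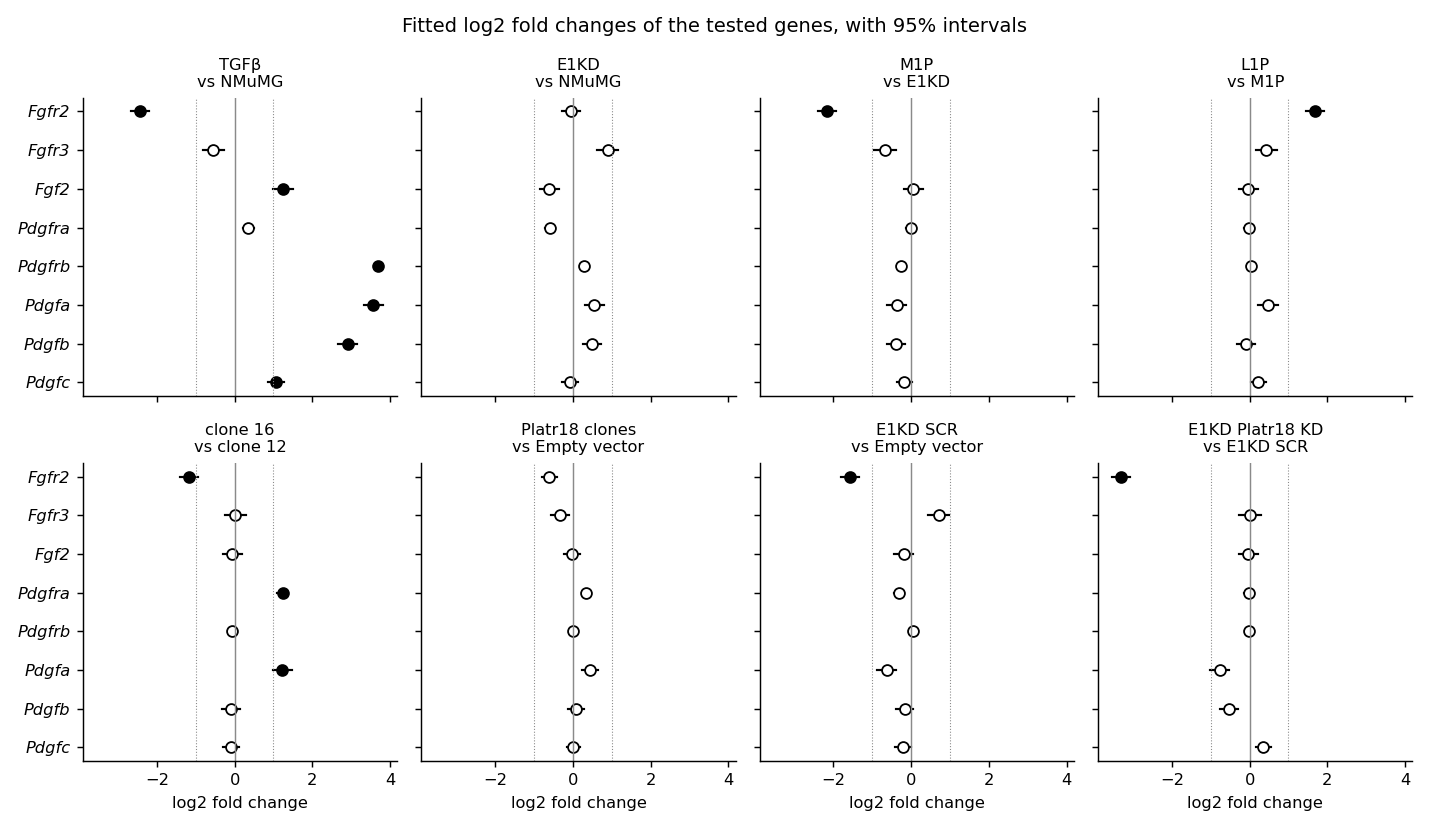
Log2 fold changes of the 8 tested genes on the log2(CPM + 1) scale in 8 comparisons, with 95% intervals as bars. Filled points passed both limits, and the dotted lines mark a change of 1 in either direction. Of the 8 comparisons drawn, that of TGFβ with NMuMG has the most filled points, 6. The direct comparison of E1KD with TGFβ and the difference of hnRNP E1 effects are not drawn.

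Among 21 other FGF ligands, 5 were tested. Fgf1, a ligand for all FGF receptors, averaged 45.5 CPM in NMuMG, 2.61 after TGFβ and 3.68 in E1KD. It fell in both, by 3.69 after TGFβ and by 3.32 in E1KD on the log2 scale (SE 0.104, limma adjusted p = 7.7e-13 and 2.8e-12), which was the reverse of Fgf2 after TGFβ. Fgf1 also split the clones, with 24.2 CPM in Empty vector, 1.54 in clone 12 and 13.7 in clone 16. Fgf13, a family member that stays inside the cell, was called higher in E1KD (log2 fold change 1.32) and lower in L1P than in M1P (-1.61). Fgf18 averaged 2.47 CPM in Empty vector and 0.615 CPM in E1KD SCR (log2 fold change -1.10, called), and Fgf11 and Fgf21 were not called in either comparison with NMuMG.

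The FGF co-receptors and heparan sulfate genes, 16 tested of 20, held calls in both directions. In E1KD 4 were called higher, 2 lower and 10 neither way, where 9.44% of all genes were called, and after TGFβ 4 higher, 3 lower and 9 neither way, where 13.5% were. Gpc1, a glypican, rose from 0.0177 CPM in NMuMG to 41.7 CPM in E1KD (log2 fold change 5.38, SE 0.103, limma adjusted p = 1.7e-14), and had no read after TGFβ. Hs6st2, a heparan sulfate sulfotransferase, had no read in NMuMG and 19.1 CPM in E1KD (log2 fold change 4.33), and Flrt2, a membrane protein that binds FGF receptors, rose from 0.172 to 18.9 CPM. All 3 were also lower with Platr18 silenced, at log2 fold changes of -2.02, -2.47 and -1.92, as Fgfr2 was. After TGFβ the syndecan Sdc3 rose by 3.24 and Fgfrl1, a receptor without a kinase, by 1.48, while Fgfbp1, a carrier that releases FGFs from matrix, fell by 3.04 on the log2 scale.

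Of 10 other PDGF genes 7 were tested, and E1KD called 3 higher, where 9.44% of all genes were called. Plau, a protease of the plasminogen system, rose from 0.00943 to 7.65 CPM (log2 fold change 3.09) and Nrp1, a co-receptor that binds several growth factors, from 19.4 to 83.8 CPM (2.03). Sparc, which binds PDGF, rose from 213 to 437 CPM (1.02). TGFβ called only Pcsk6 of these, a proprotein convertase, lower at -1.41, where 13.5% of all genes were called. Pdgfd, the remaining PDGF ligand, averaged at most 0.183 CPM, in E1KD, and was not tested.

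Of 26 genes that relay the receptors' signal, where 13.5% of all genes were called after TGFβ and 9.44% in E1KD, TGFβ called 3 higher and 0 lower, with Stat3 at 1.65, Plcg1 (phospholipase C gamma) at 1.33 and the adaptor Gab2 at 1.25, and E1KD called 2 higher, Gab1 at 1.38 and Hras at 1.11. Of 11 tested feedback inhibitors TGFβ called 2 higher and 1 lower: the phosphatase Dusp4 rose from 33.5 to 114 CPM (1.74), Spred2 from 21.4 to 45.2 CPM (1.05), and the ERK phosphatase Dusp6 fell from 74.4 to 23.6 CPM (-1.62). E1KD called 2 of these inhibitors higher and 0 lower, Dusp5 from 10.4 to 31.0 CPM (1.496) and Spry3 from 0.00943 to 1.07 CPM (1.03). Spry3 reached 1 CPM only in E1KD and M1P libraries, so its call is a description. Of 10 tested targets of the MAP kinase pathway TGFβ called 0 higher and 4 lower, namely Ccnd1 (-1.78), Fosl1 (-1.67), Egr1 (-1.58) and Phlda1 (-1.29). E1KD called 2 of these targets higher and 0 lower, Fosl1 at 1.68 and Ccnd1 at 1.12, so these 2 genes had opposite signs in the 2 comparisons. The E1KD values of Ccnd1, Hras, Spry3 and Sparc passed the limit of 1 by less than the 0.17 by which the median of all genes was shifted. Median log2 fold changes of the targets were -0.297 after TGFβ and 0.434 in E1KD, beside -0.0768 and 0.17 over all genes.

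From E1KD to M1P Gpc1 fell from 41.7 to 6.12 CPM (log2 fold change -2.57), Flrt3 rose from 6.26 to 27.9 CPM (2.00) and Pcsk6, which can process PDGF precursors, rose from 11.3 to 37.2 CPM (1.66). The feedback inhibitor Spry1 fell from 14.0 to 5.91 CPM (-1.11), past the limit of 1 by less than the -0.168 at which the median of all genes lay. From M1P to L1P Hs6st2 (-1.61) and Fgfbp1 (-1.49) fell while Sdc3 rose (1.13), beside the higher Fgfr2, and the target Egr1 rose from 3.95 to 12.3 CPM (1.43). E1KD SCR cells shared with E1KD cells a called rise of Gpc1 (3.92), Hs6st2 (2.56), Flrt2 (1.89) and Plau (2.59), here over Empty vector. The limma adjusted p was 7.4e-13 for Gpc1, 9.7e-13 for Hs6st2 and 5.1e-11 for Flrt2. Plau entered the test only through cells with the hnRNP E1 shRNA, so its value is given with no p. E1KD SCR and Empty vector cells also differed in vector and scrambled shRNA, which cannot be told apart from hnRNP E1 silencing here. In E1KD Platr18 KD cells Flrt3 rose over E1KD SCR from 27.8 to 75.6 CPM (1.41), against the fall of Fgfr2. In clone 16 against clone 12, Fgfbp1 (-1.76), Nrp1 (-1.13) and Myc (-1.02) were lower.

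**Figure D4:**
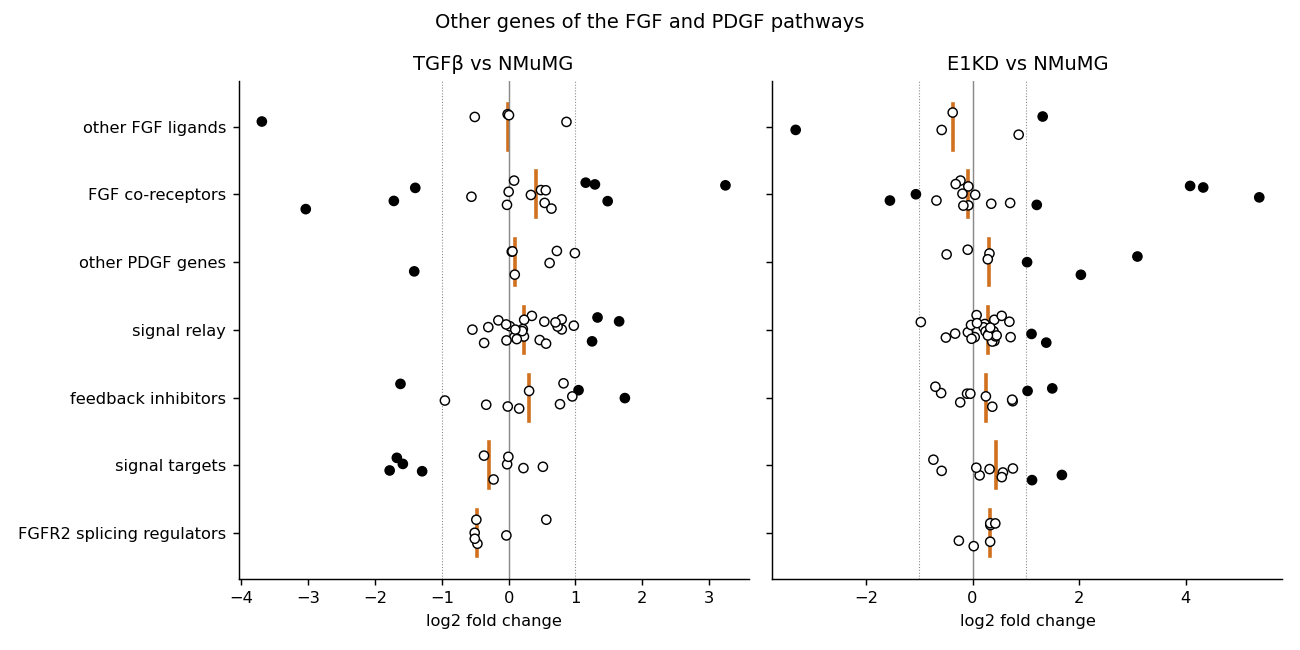
Log2 fold changes of the tested genes in 7 lists of the FGF and PDGF pathways, after TGFβ and in E1KD, each against NMuMG. Each point is a gene, filled points passed both limits, and orange lines are list medians, which for the signal targets were -0.297 after TGFβ and 0.434 in E1KD.

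The genes whose pattern was most like each member were found from Pearson's r over the 20 libraries, after the mean of each kind of library was taken off, and are given as a description of values that share libraries and conditions. Pdgfrb was most like the long noncoding RNA RP23-376D8.3 (r = 0.999), Has2 (0.998), which makes hyaluronan, and Angpt4 (0.998), each reaching only 2.42 to 5.02 CPM. Pdgfb was most like Serpinf1 (0.983), Pdgfa like Ctla2a (0.971) and Pdgfc like Glipr1 (0.961). Fgfr2 was most like Mettl2 (0.935), the lowest top value of the 8 genes, and Fgfr3 like Gtf3c2 (0.982), Fgf2 like RP23-118B13.3 (0.972) and Pdgfra like Morc4 (0.974).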

How the data were processed

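The deposited table holds 20 libraries of mouse cell lines. The authors sequenced RNA on an Illumina HiSeq2500, aligned it with Bowtie2 (version 2.2.5 and build GRCm38.p6 in the submitters' processing notes), quantified genes by expectation-maximization in Partek, and deposited CPM (reads of a gene scaled to the library total) with 0.0001 added to each value. Strand use is not given in the sources used here. Depth was read from the step of 1 read; under 30 reads, 91.3% to 92.5% of values were whole (within 0.05 read) in the NMuMG, TGFβ, E1KD, M1P and L1P libraries and 97.3% to 97.8% in the others, so the values were not turned back into counts and models for counts were not applied. Intervals and the limit of 3 reads cover counting error only where reads are named.

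Genes that reached 1 CPM in 2 or more libraries were fitted as log2(CPM + 1) with limma 3.58.1 in R 4.3.3 (lmFit, eBayes with trend) as 10 condition means, leaving 10 degrees of freedom. Fold changes on this scale understate changes of low genes, and fold values are ratios of mean CPM. P-values are two-sided and adjusted by Benjamini-Hochberg over 17106 genes. The fit was tested on simulated data. The study used Partek's gene-specific analysis, which was not run here. Members, gene lists and tests were chosen with earlier results of these data known. Named genes are the members, Pcbp1 and Lncenc1, at most 4 called genes per list and comparison by size, genes of the FGF ligand, co-receptor and PDGF lists that were tested, and the 3 genes most like each member. The splicing regulators, Pdgfd, the markers and the genes that overlap a member in exons were named after their values were seen. Alternatives were another pseudocount, 2 filters, 2 scalings, a replicate block, an adjusted p, libraries of 1 kind or of the 4 conditions compared alone, each clone alone, and leaving out each library. Exon overlaps and lengths (coding transcripts) are from GENCODE M21, whose spans of the members match the table; promoters are from RefSeq and were matched for 7 of the 10 genes. Python 3.11.15 with pandas 2.3.3, numpy 2.4.6 and matplotlib 3.10.9 made the tables and figures.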

Additional observations from a re-analysis of the deposited data

Results flagged for a closer look

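The change of E1KD against NMuMG differed from that of E1KD SCR against Empty vector, each by a test of the difference itself. The difference was 1.54 on the log2 scale for Fgfr2 and 1.19 for Pdgfa. Kind of library, vectors and the scrambled shRNA cannot be told apart in these differences. In the first pair of conditions Fgfr2 changed by -0.04 and Pdgfa by 0.55, and in the other by -1.58 and -0.63.

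The 2 clones that overexpressed Platr18 differed, by a direct test of clone 16 against clone 12, for Fgfr2 (-1.18), Pdgfra (1.23) and Pdgfa (1.23). Pdgfra passed the filter on low values only through clone 16 and 1 TGFβ library, so its difference is a description. Groups of 2 libraries were too small to test for a value far from the others, but E1KD replicate 1 stood off from replicate 2 by a median log2 ratio of 0.36, with the next in size, after TGFβ, at -0.0918.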

How the results depend on the processing

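Of the values of single genes under the alternatives, 21 reversed, 344 kept direction and side of the limits, 2 gained and 1 lost a call when libraries were left out, and 9 reversed, 610 kept both and 13 gained a call otherwise. With a pseudocount of 0.1, members called were 3 between E1KD and NMuMG (0 with 1), 2 between M1P and E1KD (1), 1 between the clones and Empty vector (0) and 3 between E1KD SCR and Empty vector (1), and Fgfr3 was -0.57 in the difference of hnRNP E1 effects. With a mean of at least 5 CPM, which left Fgfr3, Fgf2, Pdgfra and Pdgfrb untested, 4 members were called between E1KD and TGFβ (7). Clone 16 alone called 2 against Empty vector. Pdgfc in the difference of hnRNP E1 effects was -0.0611 with equal sums and -0.063 with median-of-ratios factors, which also gave it 0.036 between M1P and E1KD. Clone 12 alone gave Fgf2 0.00053, Pdgfra -0.28 and Pdgfa -0.17, and clone 16 alone Pdgfrb -0.020 and Pdgfc -0.035. The causes were not tested.

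With single libraries left out, members called ranged from 0 to 1 between E1KD and NMuMG. Fold changes whose sign turned ranged as follows. Between E1KD and NMuMG, Fgfr2 ran from -0.25 to 0.16 and Pdgfc from -0.25 to 0.11. Between M1P and E1KD, Fgf2 ran from -0.0195 to 0.11, Pdgfra from -0.058 to 0.025 and Pdgfc from -0.35 to 0.0019. In the difference of hnRNP E1 effects, Fgfr3 ran from -0.042 to 0.41 and Pdgfc from -0.037 to 0.32. Between E1KD Platr18 KD and E1KD SCR, Fgfr3 ran from -0.090 to 0.11 and Pdgfra from -0.048 to 0.019, and between L1P and M1P Fgf2 from -0.097 to 0.036. Between the clones and Empty vector, Fgf2 ran from -0.12 to 0.064, Pdgfb from -0.015 to 0.17 and Pdgfc from -0.056 to 0.076, and between clone 16 and clone 12 Pdgfb from -0.19 to 0.031. None of these was called in the full data.

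Counts over all genes moved by over 1.5 times as well. A pseudocount of 0.1 gave 1130 between M1P and E1KD (614 with 1), 465 between L1P and M1P (207), 616 for the clones (249), 1362 between the clones (750), 633 with Platr18 silenced (253), 1708 between E1KD SCR and Empty vector (1023) and 983 for the difference of effects (601). A mean of at least 5 CPM, which tests fewer genes, gave 948 between E1KD and NMuMG (1614), 329, 115, 127, 476, 139, 557 and 308 for the 7 comparisons just named, in that order, and clone 12 alone gave 624. Leaving out single libraries gave 1412 to 3074 between E1KD and NMuMG, 568 to 2021 between M1P and E1KD and 563 to 1779 for the difference of effects. The highest of each came without E1KD replicate 2 and the lowest without E1KD replicate 1.

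The replicate numbers did not pair the libraries, with correlations of deviations from -0.395 to 0.287. A replicate block gave the same number of members called in each of the 10 comparisons, such as 6 after TGFβ, and 2310 genes there in place of 2311. With the numbers of TGFβ crossed, an alternative chosen after seeing the data, 7 members and 3989 genes were called between E1KD and TGFβ, and with those of clone 16 crossed 0 members and 249 genes between the clones and Empty vector. With 3 reads worth up to 0.0591 CPM, changes of Fgfr4 were not detectable.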
